A study of Mus musculus with 12 samples.

Results

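The 10 genes described here mark the endothelium of the liver sinusoids: Stab1, Stab2, Lyve1, Fcgr2b, Clec4g, Kdr, Pecam1, Oit3, Bmp2 and Wnt2. They were taken by gene name from tables of 54532 genes, 28715 of them with counts in any of the libraries. All 10 were found once each, and all 10 passed the filter on low counts in every comparison. They were measured by bulk RNA sequencing in the livers of male mice with PPARγ flox/flox alleles, so that controls and knockouts carried the same floxed gene. At 8 weeks of age the mice had received AAV8-TBG-Cre (PPARγ-KO) or AAV8-TBG-eGFP (control littermates, called WT), and then a fast-food diet (FFD, with 21% fat, 34% sucrose and 0.2% cholesterol, and sugar in the drinking water) for 2 or 5 months. The TBG promoter drives expression in hepatocytes, so endothelial cells were not the cells targeted. Each of the 4 groups had 3 libraries, 12 in all.

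Liver sinusoids are lined by fenestrated endothelial cells without a continuous basement membrane, which take up waste molecules from portal blood through scavenger and lectin receptors. The same cells send BMP2 and Wnt ligands to neighbouring hepatocytes, where BMP signals drive hepcidin and Wnt signals maintain pericentral genes, and they depend on VEGF made by hepatocytes. In chronic liver disease they can lose these features and take on those of a common capillary, a change called capillarization.

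Library totals ran from 16367775 to 27452284 counts, and the 10 markers together took 4942 to 13747 counts per library. Single-gene counts were lowest for Wnt2 (29 to 111 per library) and at least 278 in every library for the other 9 genes. Levels below are CPM, each library's counts scaled to a common total with TMM factors (normalized CPM), given as mean ± SD with n = 3, and fold changes are on the log2 scale with the standard error (SE) of the edgeR quasi-likelihood fit. Adjusted p-values are Benjamini-Hochberg values over all genes tested, and a gene is said to have risen or fallen where the adjusted p was below 0.05. Pparg itself had 623 to 804 counts in the 6 WT libraries and 974 to 1834 in the 6 libraries labelled PPARγ-KO. A count over the whole gene does not isolate the floxed exons, so the deletion could not be checked, and every direction below rests on the labels. Of all libraries WT replicate 1 at 2 months was the least like its replicates, with a mean chi-square per gene of 28.68 and 25.01 against the other replicates where all other pairs had 2.35 to 15.94. Hepatocyte markers summed to 60460 to 92780 CPM and the 24 pan-endothelial genes examined all had counts.

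Upstream sequences are shown for 3 of the markers because their levels moved in different ways. Stab1 and Kdr fell between 2 and 5 months in both genotypes, whereas Clec4g rose over that time in WT. Each is the reference sequence just upstream of the annotated start (RefSeq, GRCm38.p6), written 5′ to 3′ on the gene's strand. Capitals mark matches to the ETS core forms AGGAAG and CGGAAG on either strand.
Stab1 (chr14:31168642-31168891, minus strand): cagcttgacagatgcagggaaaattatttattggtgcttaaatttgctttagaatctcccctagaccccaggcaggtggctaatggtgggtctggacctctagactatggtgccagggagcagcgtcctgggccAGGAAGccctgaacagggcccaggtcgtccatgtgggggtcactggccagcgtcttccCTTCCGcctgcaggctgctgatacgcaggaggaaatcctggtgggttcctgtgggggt
Kdr (chr5:75978459-75978705, minus strand): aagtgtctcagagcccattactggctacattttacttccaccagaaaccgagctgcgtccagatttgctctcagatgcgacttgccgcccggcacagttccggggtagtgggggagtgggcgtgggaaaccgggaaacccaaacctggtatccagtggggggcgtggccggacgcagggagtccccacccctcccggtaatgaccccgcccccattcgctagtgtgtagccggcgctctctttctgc
Clec4g (chr8:3720652-3720901, minus strand): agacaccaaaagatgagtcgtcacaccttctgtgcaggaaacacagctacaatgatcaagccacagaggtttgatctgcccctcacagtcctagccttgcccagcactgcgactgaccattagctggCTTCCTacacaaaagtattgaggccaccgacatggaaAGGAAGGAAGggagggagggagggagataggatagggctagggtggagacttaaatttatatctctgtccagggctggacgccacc
The Stab1 window held 2 ETS-form matches, the Clec4g window 3, a pair of which overlap, and the Kdr window 0. Of 32851 mouse promoter windows of 250 bases, 39.2% held at least 1 such match. The GATA forms AGATAA and TGATAA, found in 16.6% of all windows on either strand, and the PPAR repeat of 2 AGGTCA units with 1 base between them, found in 0.0335%, were absent from all 3 sequences. Of the 10 markers 6 had a promoter in the table, and Lyve1, Pecam1, Bmp2 and Oit3 had none. These matches are letters only, and binding was not measured here.

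Per kilobase of transcript, Oit3 and Clec4g had the highest levels in every group. In WT livers at 2 months Oit3 stood at 13.6 ± 1.36 CPM per kb and Clec4g at 13.0, a gap smaller than the spread of Oit3. Stab2 (10.7), Stab1 (10.1), Fcgr2b (9.33), Kdr (9.19), Lyve1 (9.18) and Bmp2 (7.65) followed closely. Pecam1, a junction protein of all endothelium, had 5.28 CPM per kb and Wnt2 the least, 1.73. Both held these last ranks in all 4 groups. At 5 months Clec4g led at 20.8 CPM per kb in WT and 14.2 in PPARγ-KO, and Stab1, at rank 4 in WT at 2 months, was at rank 8 in WT at 5 months with 4.85 CPM per kb.

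After 2 months of FFD, PPARγ-KO and WT livers were compared to see whether the endothelial markers differed early in the diet. None of the 10 passed the edgeR test, where 3.56% of the 14573 genes tested did, and none passed DESeq2's test, which called 988 genes. At an unadjusted p below 0.05, Lyve1 and Clec4g were 2 of the 10, against 18.9% of all genes, and Lyve1 alone also had a 1.3-fold change, as did 11.0% of all genes. The median log2 fold change of the 10 was -0.01, and over all genes it was -0.0048. Their summed level was 495 ± 49.4 CPM in WT and 477 ± 32.4 CPM in PPARγ-KO.

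**Figure D1:**
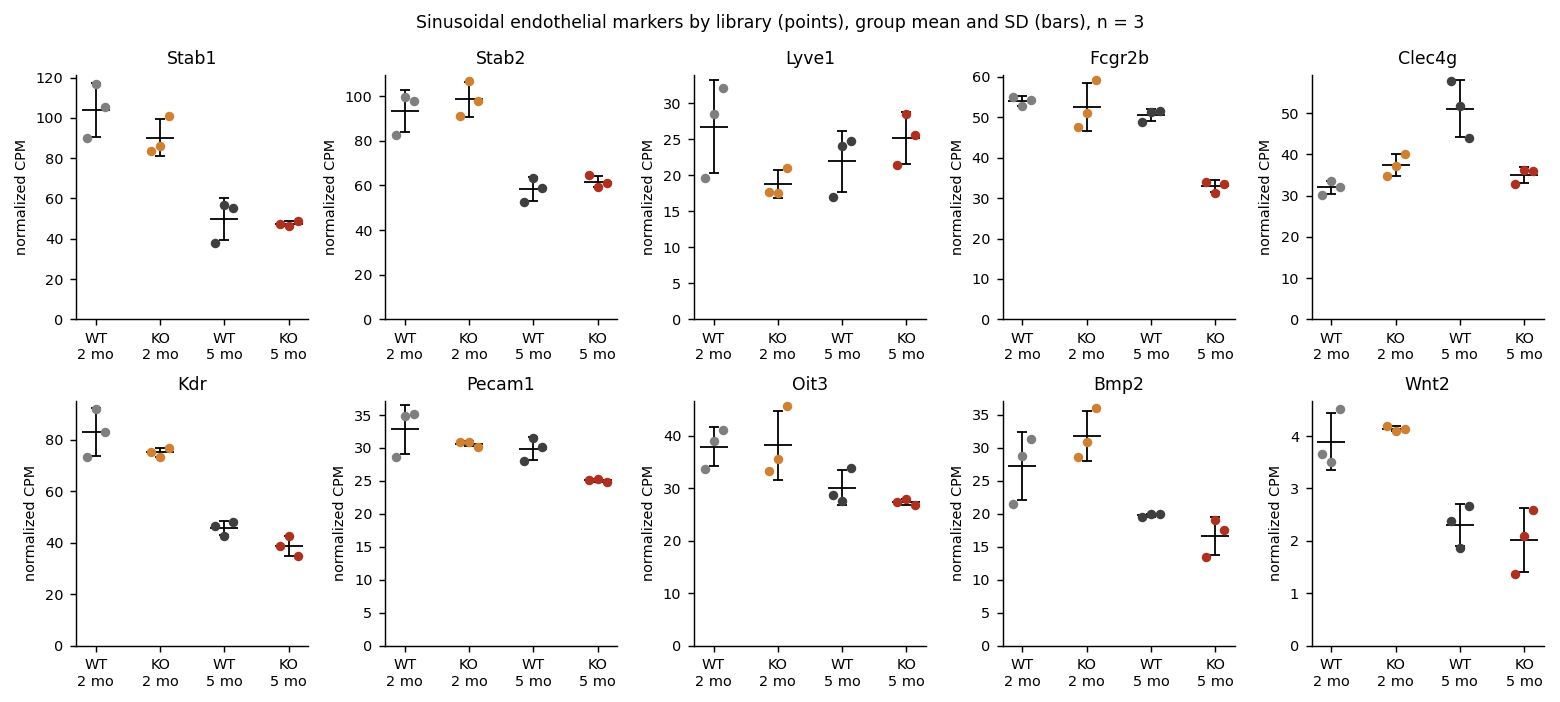
Normalized CPM (vertical axis, from 0) of each of the 10 markers in each library (points) of the 4 groups, with the group mean and SD (n = 3). Stab1, Stab2 and Kdr lie lower at 5 months in both genotypes, Clec4g stands highest in WT at 5 months, and Fcgr2b stands lowest in PPARγ-KO at 5 months.

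Among the scavenger receptors at 2 months, Lyve1 showed the widest gap. This hyaluronan receptor, which lymphatic endothelium and some macrophages also carry, stood at 19.7, 28.5 and 32.2 CPM in the WT libraries and at 17.7, 17.6 and 21.0 CPM in PPARγ-KO. WT replicate 1 lay within the PPARγ-KO range, so the groups overlapped. The log2 fold change was -0.51 (SE 0.17, edgeR adjusted p = 0.157). With the replicate number as a block Lyve1 did pass (adjusted p = 0.0419), and without WT replicate 1 the change was -0.69 (adjusted p = 0.00253). Over all alternatives its adjusted p ran from 0.000219 to 0.412.

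Clec4g, the lectin LSECtin, was the only marker whose groups did not overlap at 2 months, which 24.1% of all genes also showed. It stood at 30.3, 33.5 and 32.2 CPM in WT and at 34.8, 37.1 and 40.1 CPM in PPARγ-KO. Its log2 fold change was 0.22 (SE 0.08, adjusted p = 0.187). The hyaluronan and scavenger receptor Stab2 was close to equal in both groups, with 93.4 ± 9.48 CPM in WT and 98.7 ± 7.90 CPM in PPARγ-KO. Its 95% interval for the log2 fold change ran from -0.13 to 0.28. For Fcgr2b, the inhibitory Fc receptor that clears immune complexes, the interval ran from -0.23 to 0.16. Those of Oit3 (-0.27 to 0.29) and Wnt2 (-0.32 to 0.50) also took in 0 and were wider. Stab1, a relative of Stab2, had a log2 fold change of -0.21 (interval -0.45 to 0.03), Kdr of -0.14, Pecam1 of -0.10 and Bmp2 of 0.23, none past the test.

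After 5 months of FFD, 3 of the 10 markers were lower in PPARγ-KO than in WT livers and none was higher. The 3 were Fcgr2b, Clec4g and Pecam1. Over all 14138 genes tested 18.4% were called, 9.51% lower and 8.9% higher. With library size alone, 1894 of all calls were lower and 889 higher where TMM scaling gave 1344 and 1258. The median of the 10 was -0.21, against -0.0058 over all genes. Groups did not overlap for 4 markers, the 3 called and Bmp2, all lower in PPARγ-KO, where 34.8% of all genes showed no overlap. Summed over the 10, WT libraries held 360 ± 17.6 CPM and PPARγ-KO libraries 312 ± 6.31 CPM.

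Fcgr2b differed most at 5 months. It stood at 48.9, 51.3 and 51.6 CPM in WT and at 34.0, 31.2 and 33.6 CPM in PPARγ-KO, with a clear gap between the groups. The level was 1.53-fold lower, a log2 fold change of -0.61 (SE 0.07, adjusted p = 5.70e-05), and it remained below the threshold with any single library left out. Fcgr2b is also expressed by B cells and macrophages, and markers of both moved at this time. Of 12 macrophage markers 11 fell in PPARγ-KO, and their sum was 1143 to 1251 CPM in WT against 536 to 693 CPM in PPARγ-KO. Adgre1 (F4/80) fell by 1.20 on the log2 scale and Cd5l, a protein secreted by Kupffer cells, by 1.19. Itgam fell by 1.86 and Timd4, a marker of resident Kupffer cells, by 1.38. Adgre1 did not pass with no filter or without any one of 4 libraries (adjusted p up to 0.138), nor Timd4 without any one of 5 (up to 0.123), and the number of macrophage markers called lower ranged from 8 to 11 over the alternatives. Of the 5 B cell markers tested 3 fell, among them Ms4a1 (-2.01, from 1.03 ± 0.186 CPM in WT), while Ighm, the immunoglobulin M chain, rose (1.18). Ighm did not pass with the replicate block or in the fit of all 12 libraries (adjusted p up to 0.106). The B cell sum was 20.02 to 32.6 CPM in WT and 37.6 to 48.1 CPM in PPARγ-KO, and Ighm alone made up 17.0 and 38.2 CPM of it on average. The part of these cells in the Fcgr2b difference was not tested.

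Clec4g at 5 months stood at 57.7, 51.7 and 44.0 CPM in WT and at 32.8, 36.1 and 36.1 CPM in PPARγ-KO. The 3 PPARγ-KO libraries lay together below the lowest WT library. The level was 1.45-fold lower, with a log2 fold change of -0.53 (SE 0.09, adjusted p = 0.00144).

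Pecam1 was 28.1, 31.5 and 30.2 CPM in WT and 25.2, 25.2 and 24.8 CPM in PPARγ-KO. The PPARγ-KO libraries were tightly grouped just below the lowest WT library. The fall was small, -0.24 on the log2 scale (SE 0.07, adjusted p = 0.0374), and it did not pass in 10 of 15 alternatives, including DESeq2 and the fit without any one PPARγ-KO library (adjusted p 0.0153 to 0.167 over all alternatives). Leukocytes and platelets also carry Pecam1.

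Kdr, the main VEGF receptor of endothelium (VEGFR2), was 46.6, 42.5 and 48.0 CPM in WT and 38.7, 42.5 and 34.8 CPM in PPARγ-KO at 5 months. The groups touched at 42.5 CPM. The log2 fold change was -0.23 (SE 0.08, adjusted p = 0.0729), and it passed without PPARγ-KO replicate 2 (adjusted p = 0.0303) with library size alone (0.0211) and with no filter (0.0467). Bmp2 was 19.4, 19.9 and 19.9 CPM in WT and 13.4, 19.0 and 17.5 CPM in PPARγ-KO. Its groups did not overlap, but PPARγ-KO replicate 1 set most of the gap, and the log2 fold change of -0.24 (SE 0.12) had an adjusted p of 0.197.

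The remaining markers did not pass at 5 months. Stab2 stood at 58.4 ± 5.39 CPM in WT and 61.7 ± 2.57 CPM in PPARγ-KO (interval of the log2 fold change -0.08 to 0.25). Stab1 was 37.8, 56.7 and 55.3 CPM in WT and 47.1, 46.4 and 48.7 CPM in PPARγ-KO, so that WT replicate 1 lay below and the other WT replicates above all PPARγ-KO libraries. Its log2 fold change was -0.07 (SE 0.14), and without WT replicate 1 it was -0.23 (adjusted p = 0.0206). Lyve1 was 22.0 ± 4.25 CPM in WT and 25.2 ± 3.59 CPM in PPARγ-KO, the direction opposite to that at 2 months, with a log2 fold change of 0.21 (adjusted p = 0.431). Oit3 (-0.13) and Wnt2 (-0.20) had adjusted p-values of 0.352 and 0.690.

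The effect of PPARγ-KO at 5 months was then set against that at 2 months in one fit of all 12 libraries. The difference passed for 2 of the 10 markers, where 1.57% of 15127 genes passed. At the study's thresholds, an unadjusted p below 0.05 and a 1.3-fold change, 4 of the 10 were called, against 10.3% of all genes. Clec4g was higher in PPARγ-KO at 2 months, without passing, and lower at 5 months, and the difference of effects was -0.77 (SE 0.13, adjusted p = 0.00859). For Fcgr2b it was -0.58 (SE 0.11, adjusted p = 0.0138), and without WT replicate 3 at 5 months its adjusted p was 0.0510. In the same contrast 6 of 12 macrophage markers were called lower and none higher, among them Cd5l (-1.04) and Timd4 (-2.27), and their part in the Fcgr2b difference was not tested. For Lyve1 the difference was 0.71 (SE 0.27, adjusted p = 0.238), and it passed with the replicate block, with no filter and without WT replicate 1 at 2 months (adjusted p 0.00111 to 0.407 over the alternatives). The Bmp2 difference of -0.47 had an adjusted p of 0.291 and that of Pecam1, -0.15, one of 0.592. Stab2 had a difference close to 0 with an interval from -0.27 to 0.27.

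**Figure D2:**
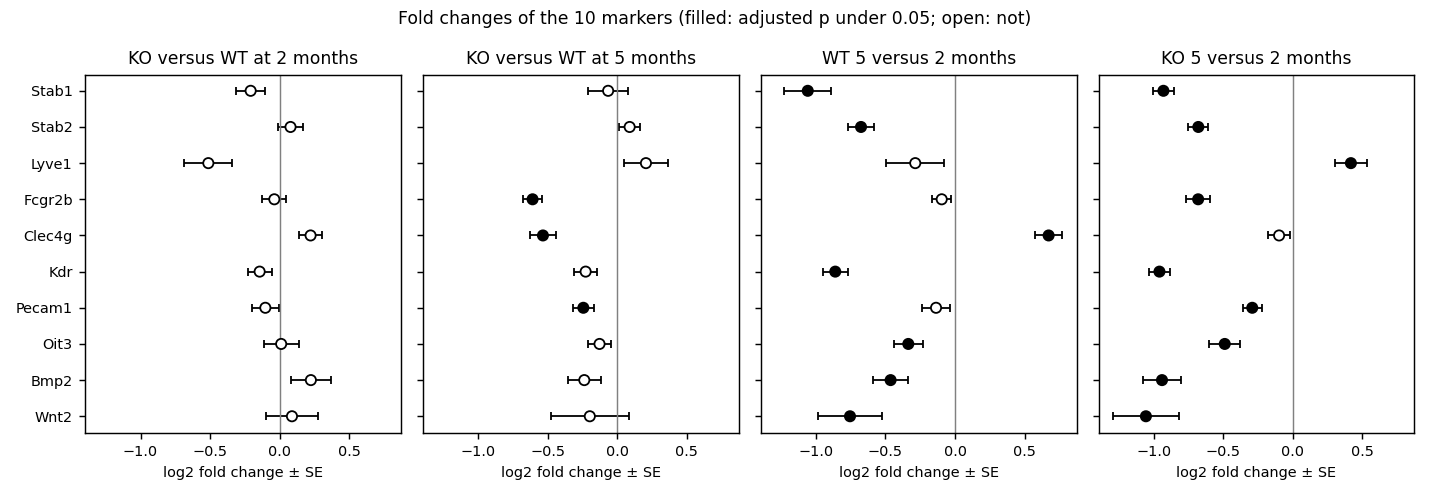
Log2 fold change (horizontal axis) with its SE for each of the 10 markers in the 4 comparisons, from edgeR; filled points have an adjusted p below 0.05. Filled points number 0 and 3 for PPARγ-KO against WT at 2 and 5 months, 7 for WT over time and 9 for PPARγ-KO over time.

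Between 2 and 5 months on FFD, 6 of the 10 markers fell in WT livers and 1 rose, against 46.4% of 14491 genes called, 22.7% lower and 23.8% higher. The median of the 10 was -0.40, where the median of all genes was -0.0128. Stab1, Kdr, Wnt2, Stab2, Bmp2 and Oit3 fell, and Clec4g rose. Groups did not overlap for 7 of the 10 in WT, where 56.7% of all genes showed none, and for 9 in PPARγ-KO, where 55.6% did. In PPARγ-KO livers 8 fell and 1 rose, against 44.9% of 14478 genes called, 22.2% lower and 22.7% higher. With library size alone, calls over all genes were 3872 lower and 2745 higher in WT and 3725 lower and 2741 higher in PPARγ-KO. With TMM scaling the median of the 10 in PPARγ-KO was -0.68, with -0.0111 over all genes. The summed level of the 10 was 0.727 of its 2-month value in WT and 0.654 in PPARγ-KO. A lower level in bulk liver can come from fewer cells of a type or from less RNA per cell, and these cannot be told apart here. Neither can time on the diet, age and any batch in which the libraries of one time were made.

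Stab1 fell most in WT. Its 3 WT libraries stood at 90.1, 117 and 105 CPM at 2 months and at 37.8, 56.7 and 55.3 CPM at 5 months, so that every 5-month library lay far below every 2-month library. The fall was 2.08-fold, -1.06 on the log2 scale (SE 0.17, adjusted p = 0.00171). In PPARγ-KO, Stab1 went from 83.6, 86.1 and 101 CPM to 47.1, 46.4 and 48.7 CPM, a log2 change of -0.93 (SE 0.08, adjusted p = 6.42e-06). The difference between the genotypes in this change, 0.13 (SE 0.20), did not pass (adjusted p = 0.823).

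Stab2 fell by nearly the same amount in both genotypes. It went from 82.5, 99.8 and 97.8 CPM to 52.8, 63.5 and 59.0 CPM in WT, and from 91.3, 107 and 97.6 CPM to 64.5, 59.4 and 61.3 CPM in PPARγ-KO. The groups of the times did not overlap in either genotype. The log2 changes were -0.68 (SE 0.10, adjusted p = 0.000239) and -0.68 (SE 0.07, adjusted p = 2.98e-05).

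Kdr went from 73.5, 92.2 and 83.2 CPM to 46.6, 42.5 and 48.0 CPM in WT. In PPARγ-KO it went from 75.2, 73.5 and 76.8 CPM to 38.7, 42.5 and 34.8 CPM. Every 5-month library was below every 2-month library. The log2 changes were -0.86 in WT (SE 0.09, adjusted p = 3.80e-05) and -0.96 in PPARγ-KO (SE 0.08, adjusted p = 5.03e-06).

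Both ligands fell. Wnt2 went from 3.65, 3.50 and 4.51 CPM to 2.37, 1.86 and 2.66 CPM in WT, and from 4.19, 4.10 and 4.13 CPM to 1.37, 2.10 and 2.59 CPM in PPARγ-KO. It is the least abundant of the 10, yet the groups of the times were separate in each genotype. The log2 changes were -0.76 (SE 0.23, adjusted p = 0.0191) and -1.06 (SE 0.24, adjusted p = 0.00395), and the WT change did not pass without WT replicate 3 at 2 months or replicate 2 at 5 months (adjusted p up to 0.0878). Bmp2 went from 21.4, 28.8 and 31.3 CPM to 19.4, 19.9 and 19.9 CPM in WT, and from 28.6, 30.8 and 35.9 CPM to 13.4, 19.0 and 17.5 CPM in PPARγ-KO. WT replicate 1 at 2 months lay close to the 5-month level, and in PPARγ-KO the gap was wide. The log2 changes were -0.46 (SE 0.13, adjusted p = 0.0128) and -0.94 (SE 0.13, adjusted p = 0.000450). Without WT replicate 3 at 2 months the WT change had an adjusted p of 0.0548.

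Oit3, a secreted protein used as a marker of sinusoidal endothelium, was 33.8, 39.1 and 41.1 CPM in WT at 2 months and 28.8, 27.6 and 33.9 CPM at 5 months. The highest 5-month library just passed the lowest 2-month library. The log2 change was -0.34 (SE 0.10, adjusted p = 0.0208), and it did not pass without any one of 4 WT libraries (adjusted p up to 0.1004). In PPARγ-KO the change was -0.49 (SE 0.11, adjusted p = 0.00457) with no overlap.

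Clec4g moved the other way in WT. From 30.3, 33.5 and 32.2 CPM it rose to 57.7, 51.7 and 44.0 CPM, 1.59-fold higher (log2 change 0.67, SE 0.10, adjusted p = 0.000302). In PPARγ-KO it was 37.4 ± 2.67 CPM at 2 months and 35.0 ± 1.89 CPM at 5 months, with an interval of the log2 change from -0.27 to 0.07. The difference between the genotypes in this change is the same contrast as the difference of effects given above, -0.77.

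Fcgr2b changed over time in PPARγ-KO and did not pass in WT. It was 55.0, 52.7 and 54.3 CPM in WT at 2 months and 48.9, 51.3 and 51.6 CPM at 5 months, a log2 change of -0.10 (SE 0.07, adjusted p = 0.271). In PPARγ-KO it fell from 47.5, 51.1 and 59.2 CPM to 34.0, 31.2 and 33.6 CPM, a log2 change of -0.68 (SE 0.09, adjusted p = 0.000102). Over the same interval the macrophage sum changed 2.46-fold in WT, with 10 of 12 markers rising, and 1.12-fold in PPARγ-KO, with 4 rising and 3 falling. Cd5l alone made up 169 of the mean sum of 494 CPM in WT at 2 months and 583 of 1215 CPM at 5 months. In PPARγ-KO it made up 151 of 528 CPM and 253.6 of 592.5 CPM. Of all genes 23.8% rose in WT, and 22.7% rose and 22.2% fell in PPARγ-KO. In WT, Marco rose by 2.75 on the log2 scale, Cd5l by 1.79, Adgre1 by 1.41 and Itgam by 1.22, the last not past the test without WT replicate 3 at 2 months or replicate 2 or 3 at 5 months (adjusted p up to 0.0784). Their part in the levels of the genes that macrophages share with sinusoidal endothelium was not tested.

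Pecam1 and Lyve1 moved less. In WT, Pecam1 had a log2 change of -0.14 (adjusted p = 0.278) and Lyve1 one of -0.29 (adjusted p = 0.297), with overlap for both. Lyve1 passed in WT without replicate 1 at 2 months (adjusted p = 0.0291), with the replicate block (0.0279) and with no filter (0.04999). In PPARγ-KO, Pecam1 went from 30.6 ± 0.397 CPM to 25.1 ± 0.238 CPM (-0.29, SE 0.07, adjusted p = 0.00529). Lyve1 rose in PPARγ-KO, from 17.7, 17.6 and 21.0 CPM to 21.4, 28.6 and 25.7 CPM. Its lowest 5-month library was only just above the highest 2-month library, and the log2 change of 0.42 (SE 0.12, adjusted p = 0.0130) did not pass without PPARγ-KO replicate 1 at 2 months, without replicate 2 at 5 months or in the fit of all 12 libraries (adjusted p up to 0.0957).

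Across the 12 libraries the levels of most markers ran together, which is given as a description since the 2 times and 4 groups set much of it. On log2 CPM, Pearson's r was 0.94 between Stab1 and Stab2, 0.93 between Stab1 and Kdr, and 0.90 between Bmp2 and Wnt2. Lyve1 had r between -0.28 and 0.19 with the other 9, and Clec4g between -0.55 and 0.17. The genes most like the mean standardized level of the 10, among 13161 genes with at least 1 CPM on average, were Itpkb (r = 0.97), Cbl (0.97), Phactr2 (0.97), Lama4 (0.96) and Aqp1 (0.95). Lama4 encodes a laminin chain of vascular basement membrane and Aqp1 a water channel. Aqp1 stood at 126 CPM in WT at 2 months and 98.5 CPM at 5 months, and at 123 and 77.2 CPM in PPARγ-KO.

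Within the sum of the 10, the share held by some genes shifted with time. In WT, Stab1 held 21.0% at 2 months and 13.8% at 5 months, Kdr 16.8% and 12.7%, and Clec4g 6.49% and 14.3%. In PPARγ-KO, Clec4g held 7.82% and 11.2%, and Fcgr2b 11.0% and 10.6%, where in WT Fcgr2b held 11.0% and 14.1%.

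Other genes of sinusoidal endothelium were examined to see how far the 10 stood for the cell type. Of 15 tested, none passed at 2 months by edgeR or DESeq2, and 1 had an unadjusted p below 0.05, as did 18.9% of all genes. At 5 months 2 were lower in PPARγ-KO and 1 was higher, where 9.51% and 8.9% of all genes were. Mrc1, a mannose receptor also carried by macrophages, fell by 0.57 on the log2 scale, from 69.4, 78.8 and 77.4 CPM in WT to 51.7, 51.6 and 47.6 CPM. Dnase1l3, a secreted DNase, fell by 0.25, and did not pass with DESeq2 or without WT replicate 2 or PPARγ-KO replicate 3 (adjusted p up to 0.0734). Flt4 (VEGFR3) rose by 0.90, from 23.9, 31.1 and 31.6 CPM in WT to 46.0, 65.3 and 49.1 CPM, with a wide gap between the groups. Over time 7 of the 15 fell in WT, against 22.7% of all genes, led by Wnt9b (-1.85), Flt4 (-0.97), F8, which encodes coagulation factor VIII (-0.91), and Kit (-0.90). In PPARγ-KO 9 fell, against 22.2% of all genes, led by Kit (-1.18), F8 (-1.01), Dnase1l3 (-0.99) and Efnb2 (-0.69, with an adjusted p of 0.0517 without replicate 1 at 5 months). None rose in either genotype.

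**Figure D3:**
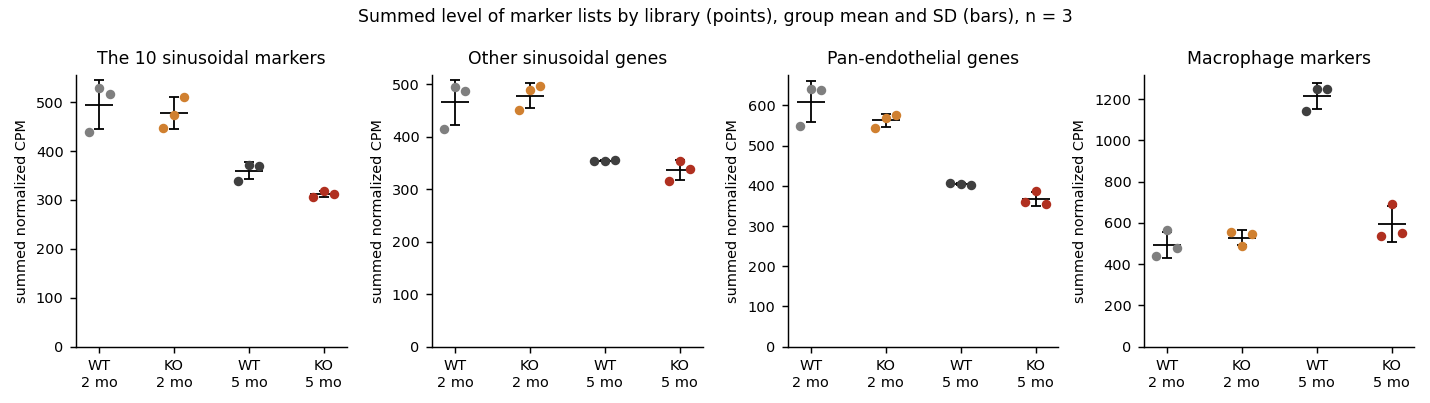
Summed normalized CPM (vertical axis, from 0) per library of the 10 sinusoidal markers, the other sinusoidal genes, 24 pan-endothelial genes and 12 macrophage markers, with group mean and SD (n = 3). The 3 endothelial sums lie lower at 5 months in both genotypes, and the macrophage sum is 1143 CPM or more in the WT libraries at 5 months and 693 CPM or less in all others.

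Genes shared by all endothelium followed the same course over time. Of 24, 14 fell and none rose in WT, and 13 fell and none rose in PPARγ-KO, where 22.7% and 22.2% of all genes fell. Their sum went from 609 ± 51.8 to 404 ± 2.64 CPM in WT and from 563 ± 16.6 to 367 ± 16.7 CPM in PPARγ-KO. Sox7, an endothelial transcription factor, fell most in WT (-1.28), with Ptprb, a phosphatase of endothelial junctions (-1.06), Rasip1 (-1.005) and Flt1 (-0.96). In PPARγ-KO, Ptprb (-1.05), Sox7 (-0.93), the TGF-beta coreceptor Eng (-0.86) and Sox17 (-0.80) led, Sox17 not past the test without any one of 3 libraries (adjusted p up to 0.0992). Between genotypes none passed at 2 months by edgeR (median -0.17), and 1 passed with the replicate block as with DESeq2. At an unadjusted p below 0.05 there were 4, all lower in PPARγ-KO, where 18.9% of all genes had such a p. At 5 months 5 of 24 were lower in PPARγ-KO and 1 was higher, where 9.51% and 8.9% of all genes were. The lower genes were led by Myct1 (-0.72), Clec14a (-0.38) and Calcrl (-0.37), and Flt1 was the higher one (0.48). The number that was lower ranged from 1 to 6 over the alternatives. Myct1 did not pass without any one of 4 libraries, Flt1 without any one of 3, or Calcrl without PPARγ-KO replicate 2 or 3 (adjusted p up to 0.0994).

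Markers of larger vessels and of capillarization did not move as one. Over time in WT, 5 of 16 fell and 5 rose, where 22.7% and 23.8% of all genes did. Selp, an adhesion molecule of activated endothelium (-1.38), and Vwf, von Willebrand factor (-1.09), fell, and Esm1 (1.09) and Fabp4 (0.97) rose. In PPARγ-KO 4 fell and 5 rose, where 22.2% and 22.7% of all genes did. Esm1 (1.77), Fabp4 (1.41), the adhesion molecule Vcam1 (0.98, with an adjusted p of 0.0611 without replicate 2 at 2 months) and Lama4 (-1.33) were at the ends. At 2 months Plvap, a diaphragm protein of fenestrated capillaries, was lower in PPARγ-KO, with 64.3, 73.4 and 60.0 CPM against 86.2, 97.8 and 86.8 CPM in WT (log2 change -0.46, SE 0.09, adjusted p = 0.0259). Plvap did not pass without WT replicate 2 or 3 or PPARγ-KO replicate 1 or 3 (adjusted p up to 0.118). With the replicate block 3 genes of this list were lower at 2 months, without WT replicate 1 there were 5, and over all alternatives 0 to 6. At 5 months Col15a1, a basement membrane collagen, was higher in PPARγ-KO by 1.75 (SE 0.17, adjusted p = 0.000122), with 24.9, 36.2 and 28.6 CPM against 7.1, 9.8 and 9.8 CPM in WT. Entpd1 (-0.62), Icam1 (-0.58) and Lama4 (-0.56) were among 4 of 15 genes tested that were lower, where 9.51% of all genes were. The remaining one was Plvap, lower in PPARγ-KO at 5 months too, by 0.30 (SE 0.06, edgeR adjusted p = 0.00401). It stood at 84.7, 92.7 and 90.3 CPM against 112.4, 110.5 and 110.2 CPM in WT, with no overlap. Entpd1 did not pass with the replicate block, in the fit of all 12 libraries or without any one of 4 libraries (adjusted p up to 0.0662), nor Lama4 without any one of 5 (up to 0.142).

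VEGF ligands and receptors were followed as the pathway of Kdr. Vegfa, the ligand of Kdr, which hepatocytes make, went from 180, 176 and 181 CPM at 2 months to 57.3, 65.6 and 73.0 CPM at 5 months in WT. In PPARγ-KO it went from 184, 148 and 172 CPM to 88.9, 79.5 and 83.1 CPM. The 5-month libraries lay far below the 2-month libraries in both genotypes, with log2 changes of -1.46 (SE 0.09) and -1.004 (SE 0.08). At 5 months Vegfa was higher in PPARγ-KO than in WT by 0.37 (SE 0.09, adjusted p = 0.00942), with no overlap, and with library size alone its adjusted p was 0.0534. The coreceptor Nrp1 was lower in PPARγ-KO at 5 months by 0.55 (SE 0.07, adjusted p = 0.000213) and fell over time in PPARγ-KO by 1.03. Flt1, the VEGF receptor that binds VEGFA most tightly, was 10.7, 10.4 and 10.8 CPM in WT and 14.1, 17.6 and 12.4 CPM in PPARγ-KO at 5 months. Vegfb, a ligand of Flt1, was the one gene of the family called at 2 months, lower in PPARγ-KO by 0.61 and not past the test without any one of 4 libraries (adjusted p up to 0.162). It rose over time in PPARγ-KO (0.53), and Vegfd, a ligand of Flt4, fell in WT (-2.20). Between genotypes at 5 months Flt1 and Flt4 were thus higher, Nrp1 lower and Kdr not past the test. Vegfb was lower in PPARγ-KO at 5 months too, by 0.32 (SE 0.10, edgeR adjusted p = 0.0356), with no overlap. Alternatives are not given for this change. Of 8 genes of the family 5 fell in WT over time and none rose, and 3 fell and 2 rose in PPARγ-KO, beside 22.7% of all genes lower in WT, and 22.2% lower and 22.7% higher in PPARγ-KO.

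**Figure D4:**
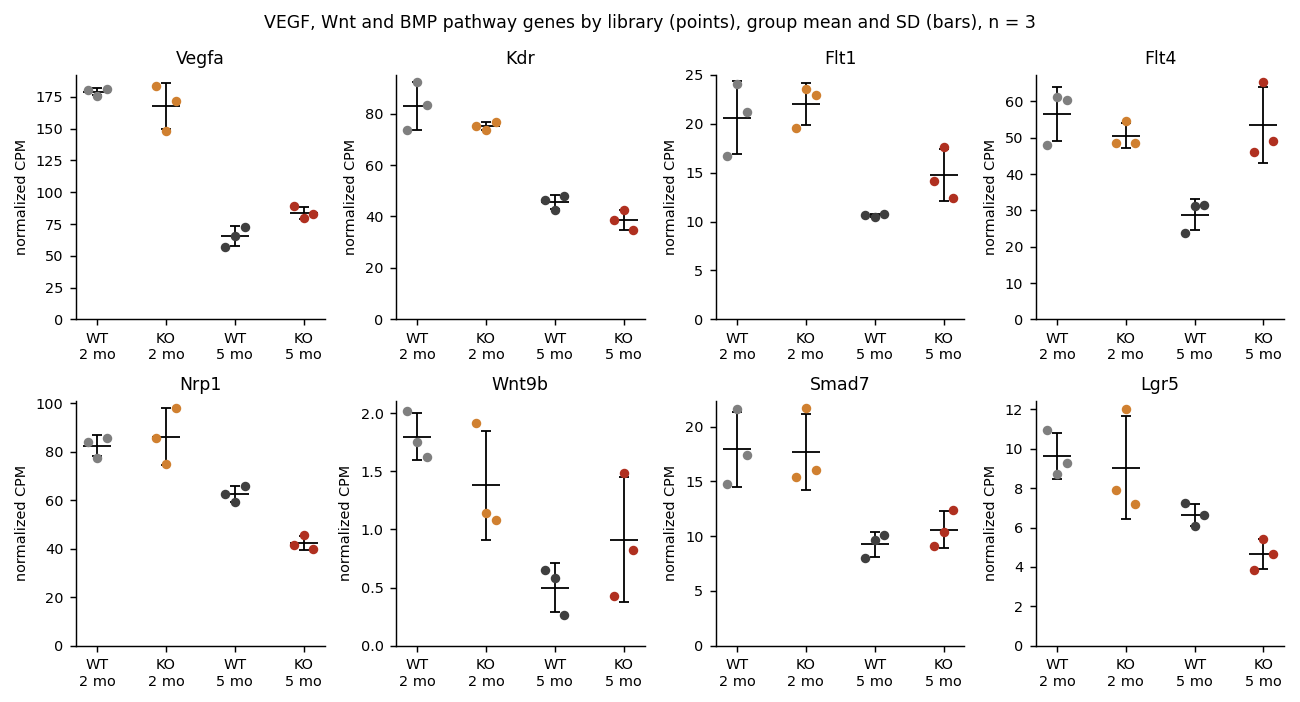
Normalized CPM (vertical axis, from 0) of genes of the VEGF, Wnt and BMP pathways in each library (points), with group mean and SD (n = 3). Vegfa and Kdr lie lower at 5 months in both genotypes, and Flt4 stands lowest in WT at 5 months.

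For Wnt2, the partner ligand and the hepatocyte targets were examined. Wnt9b, which endothelium of the central vein also makes, went from 2.0, 1.7 and 1.6 CPM to 0.7, 0.6 and 0.3 CPM in WT (-1.85, SE 0.38, adjusted p = 0.00236). In PPARγ-KO its log2 change of -0.59 (SE 0.44) did not pass. The Wnt enhancer Rspo3 did not pass in either genotype (-0.28 and -0.40). Of 22 genes of the pathway and its pericentral targets, 11 fell and 1 rose in WT over time, and 5 fell and none rose in PPARγ-KO, where 22.7% and 22.2% of all genes fell. The receptor Fzd4 (-1.06), the target Sp5 (-0.77) and Rnf43, a ligase that removes Wnt receptors (-0.74), were the largest falls in WT after Wnt9b. In PPARγ-KO, Rnf43 (-0.95), Cyp2e1, a pericentral cytochrome (-0.49), and Znrf3, a relative of Rnf43 (-0.40), fell with Lgr5. Rnf43 did not pass with the replicate block (adjusted p = 0.0515), nor Cyp2e1 in the fit of all 12 libraries (0.0659). Znrf3 did not pass without PPARγ-KO replicate 2 at 2 months or replicate 1 at 5 months (adjusted p up to 0.0679). The targets Axin2 (-0.52), Lgr5 (-0.54) and Glul, glutamine synthetase (-0.34), all fell in WT, but single omissions ended each of these calls and that of Sp5 (adjusted p up to 0.182). In PPARγ-KO, Lgr5 fell (-0.95), and Axin2 (-0.28) and Glul (0.19) did not pass. At 2 months Fzd4 was lower in PPARγ-KO (-0.72) and Cyp1a2, a pericentral cytochrome, higher (1.06). Fzd4 did not pass without WT replicate 2 or PPARγ-KO replicate 2 or 3 (adjusted p up to 0.0824). At 5 months 7 of the 22 were higher in PPARγ-KO and none was lower (3 to 8 higher over the alternatives). Of all genes 8.9% were higher and 9.51% lower. The 7 were led by Cyp1a2 (1.26), at 317, 406 and 399 CPM against 177, 148 and 148 CPM in WT, the ammonium transporter Rhbg (0.76), the receptor Fzd5 (0.56) and Lgr4, an R-spondin receptor (0.51). Rhbg and Fzd5 did not pass in the fit of all 12 libraries (adjusted p up to 0.1105 over the alternatives). Rhbg also did not pass without replicate 2 or 3 of either genotype, nor Fzd5 without replicate 2 of either. Glul was higher by 0.51, at 1440, 1951 and 1580 CPM against 1312, 1084 and 1131 CPM in WT.

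For Bmp2, the partner ligand Bmp6 had log2 changes over time of -0.40 in WT (adjusted p = 0.0647) and -0.48 in PPARγ-KO (adjusted p = 0.0376). The PPARγ-KO change did not pass with DESeq2, with the replicate block or without any one of 4 libraries (adjusted p up to 0.138). Smad7, an inhibitor that BMP signals induce, fell in both, by 0.95 and 0.74. The times did not overlap for Smad7 in either genotype, whereas Smad6 and Id1 did not show such a gap. Smad6 went from 12.2 ± 1.53 to 10.9 ± 1.04 CPM in WT and from 11.7 ± 2.17 to 8.75 ± 1.88 CPM in PPARγ-KO. Id1 went from 6.29 ± 2.23 to 5.58 ± 2.28 CPM in WT and from 3.69 ± 0.136 to 4.59 ± 1.56 CPM in PPARγ-KO. For Smad6 and Id1 the times overlapped in each genotype. Hamp, the gene of hepcidin, varied widely. It stood at 285, 69.7 and 132 CPM in WT and 138, 161 and 112 CPM in PPARγ-KO at 2 months, and at 271, 209 and 208 CPM in WT and 5.1, 54.0 and 34.5 CPM in PPARγ-KO at 5 months. The 5-month groups did not overlap, but with the spread among PPARγ-KO libraries the log2 fold change of -2.87 (SE 0.84) had an adjusted p of 0.1001. It passed with DESeq2, in the fit of all 12 libraries, without PPARγ-KO replicate 1 and at the study's thresholds, with adjusted p-values from 0.00606 to 0.268 over all alternatives. Hamp2, a close copy of Hamp whose reads counting may have split between them, was the one gene of the pathway called at 2 months, higher in PPARγ-KO by 2.09, and not past the test in the fit of all 12 libraries or without WT replicate 2 (adjusted p up to 0.0868). Of 15 genes of the pathway, 4 fell and 1 rose in WT over time, where 22.7% and 23.8% of all genes did. In PPARγ-KO 3 fell and none rose over time, where 22.2% and 22.7% of all genes did. At 5 months 1 was lower and 1 higher in PPARγ-KO, where 9.51% and 8.9% of all genes were. The 5-month pair were Atoh8, a transcription factor that BMP signals induce (-0.74), and Hjv, hemojuvelin, a BMP coreceptor (0.26). The change in Hjv did not pass without any one of 3 libraries or in the fit of all 12 (adjusted p up to 0.0809). In WT over time Hamp2 (-0.90) and the coreceptor Neo1 (-0.54) fell and Atoh8 rose (0.56), and in PPARγ-KO the receptor Acvr2a fell (-0.34). Without WT replicate 3 at 5 months and in the fit of all 12 libraries the Hamp2 fall did not pass (adjusted p up to 0.332).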

How the data were processed

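Male mice with PPARγ flox/flox alleles received AAV8-TBG-Cre or AAV8-TBG-eGFP, and liver RNA was sequenced after 2 or 5 months of FFD in 3 libraries per group, 12 in all. Groups and replicate numbers were taken from the sample labels. Whether replicates were separate animals is not said there, so p-values measure the spread between these libraries. The authors deposited raw gene counts, one table per library, aligned to mm10. The aligner is STAR in the study's methods and HISAT2 in the submitters' processing notes. The counting program, annotation version and use of strand are not given in the sources used here, so a gene and an antisense partner cannot be told apart.

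Counts were fitted with edgeR 4.0.16 in R 4.3.3 (filterByExpr, TMM, robust quasi-likelihood F-test, two-sided, Benjamini-Hochberg over all genes, threshold 0.05). Each pairwise comparison used its own 6 libraries, and the difference of effects used all 12. No replicates had the same counts, but WT replicates 2 and 3 at 5 months were by far the closest pair. Their mean chi-square per gene was 2.35, where the next closest pair had 8.613. For PPARγ-KO against WT at 5 months, 2602 genes were called. Without WT replicate 2 or 3 these were 1601 and 1593, and without WT replicate 1 they were 3078. At 2 months, same-numbered libraries of both genotypes deviated together over the 5000 most abundant genes (correlations 0.194, 0.272 and 0.141), so the fit with the replicate block is given where it changed a call. The labels do not state what the numbers share. At 5 months the correlations were -0.0675, -0.0542 and -0.182.

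The markers and all gene lists were chosen with earlier results of these data known. All 10 markers are named. Other genes were named only from the up to 4 per list and comparison with the largest fold change among those past the test whose mean reached 1 CPM in one of the groups, not all of which are given, and partner genes of Bmp2, Wnt2 and Kdr whatever their test. Alternatives were DESeq2 1.42.0 as the test, its size factors in place of TMM, library size without TMM factors, a filter of at least 10 counts throughout or no filter, the replicate block, one fit of 12 libraries, the omission of each library in turn, a threshold of 0.1, and the study's thresholds (unadjusted p below 0.05 and 1.3-fold). Promoters were matched by symbol to RefSeq (GRCm38.p6), cut to bases before the outermost GENCODE M21 start.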

Additional observations from a re-analysis of the deposited data

Results flagged for a closer look

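The difference between the PPARγ-KO effect at 5 months and that at 2 months, tested in one edgeR fit of all 12 libraries, passed for 2 of the 10 sinusoidal markers. For Clec4g it was -0.77 on the log2 scale (SE 0.13, adjusted p = 0.00859), and for Fcgr2b -0.58 (SE 0.11, adjusted p = 0.0138).

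Among the other genes named, the same difference passed for 7. Flt4 had a value of 1.05 (SE 0.21, adjusted p = 0.0303), Dnase1l3 of -0.54 (SE 0.10, adjusted p = 0.0112) and Nrp1 of -0.63 (SE 0.13, adjusted p = 0.0190). Flt4 and Nrp1 thus moved in opposite directions. The Flt4 difference did not pass with library size alone or without any one of 7 libraries (adjusted p up to 0.0734), nor that of Nrp1 without WT replicate 3 or PPARγ-KO replicate 3 at 5 months (up to 0.0702). Among macrophage markers, Cd5l had a value of -1.04 (SE 0.18, adjusted p = 0.0112) and Timd4 of -2.27 (SE 0.41, adjusted p = 0.0167), the latter not past the test without WT replicate 2 or 3 at 5 months (up to 0.0594). Fzd4 had a value of 0.89 (SE 0.17, adjusted p = 0.0221) and was not past the test without any one of 5 libraries (up to 0.0663). That of Neo1 was 0.52 (SE 0.12, adjusted p = 0.0481), and it did not pass in 14 of 20 alternatives (up to 0.140). All groups have 3 libraries, too few for a check of single outlying libraries by gap and range.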

How the results depend on the processing

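The 10 markers gave 50 results, with 800 values under the alternatives, of which 739 kept their direction and their side of the threshold, 23 no longer passed, 18 newly passed and 20 turned direction. At 2 months 1 marker, Lyve1, passed with no filter, with the replicate block, without WT replicate 1 and at the study's thresholds, and leaving out 1 library gave 0 to 1. At 5 months leaving out 1 library gave 2 to 4. In WT over time 7 passed, and leaving out 1 library gave 4 to 8, the 4 without WT replicate 3 at 2 months. In PPARγ-KO over time the range was 8 to 9. For the difference of effects 2 passed, 4 with no filter, 4 at the study's thresholds, and 1 to 3 with 1 library left out, the 1 without WT replicate 3 at 5 months. The summed level of the markers in PPARγ-KO at 5 months was 298.6 CPM with library size alone, against 312.1 CPM.

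Values that turned direction were all of changes that had not passed. With library size alone the change at 2 months was -0.0019 for Stab2 and -0.071 for Oit3, and the difference of effects for Stab2, -0.00027 as reported, was 0.021. That difference was 0.0010 with at least 10 counts in every library and 0.00059 with the replicate block. With 1 library left out, the change at 2 months ran from -0.0010 to 0.13 for Stab2, from -0.14 to 0.10 for Oit3 and from -0.13 to 0.032 for Fcgr2b. At 5 months it ran from -0.23 to 0.036 for Stab1 and from -0.40 to 0.032 for Wnt2. The difference of effects ran from -0.032 to 0.24 for Stab1, from -0.068 to 0.086 for Stab2 and from -0.24 to 0.0015 for Oit3. Axin2 in PPARγ-KO over time ran from -0.56 to 0.021. The cause of these moves was not tested. The replicate block changed no other call at 2 months among the markers. At 5 months the numbers did not pair the libraries. Over time, same-numbered libraries had correlations of 0.216, 0.176 and 0.0318 in WT, where different numbers reached 0.227. In PPARγ-KO they had -0.00638, 0.295 and -0.0095, where different numbers reached 0.232. The block gave adjusted p-values of 0.0666 to Pecam1 at 5 months, 0.0279 to Lyve1 in WT over time and 0.0392 to Lyve1 for the difference of effects. For other genes named, 98 results had 1500 values under the alternatives, of which 1354 kept direction and side of the threshold, 130 no longer passed, 15 newly passed and 1 turned direction.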

Other observations

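Markers of other cell types were summed in the same libraries, in normalized CPM as mean ± SD (n = 3). Lymphatic endothelial markers, a list that shares Flt4 and Reln with other lists and whose Prox1 hepatocytes also express, summed to 354 ± 33.2 in WT and 299 ± 21.1 in PPARγ-KO at 2 months, and to 204 ± 6.78 and 211 ± 20.7 at 5 months. In WT at 2 months Prox1 (166.5), Reln (130.8) and Flt4 (56.55) made up nearly all of this sum. Pdpn (0.191) and Mmrn1 (0.499) added little, so the sum says little about lymphatic cells. Stellate markers stood at 453 ± 17.9 and 395 ± 7.41, and then at 487 ± 8.80 and 452 ± 14.04. Cholangiocyte markers stood at 140 ± 40.8 and 79.7 ± 10.4, and then at 232 ± 82.7 and 223 ± 23.7, and Spp1, which macrophages and stellate cells also express, alone made up 128 and 67.7, and then 222 and 208 of these means. T and NK cell markers were low, at 2.92 ± 0.405 and 3.42 ± 0.718, and then at 10.0 ± 3.83 and 4.90 ± 3.04. Neutrophil and platelet markers stood at 7.92 ± 0.587 and 4.59 ± 0.141, and then at 13.1 ± 2.95 and 8.26 ± 1.51. Erythroid markers stood at 280 ± 67.1 and 287 ± 51.0, and then at 374 ± 20.8 and 540 ± 160. Hepatocyte markers stood at 66700 ± 5382 and 85060 ± 6809, and then at 63910 ± 2988 and 86560 ± 5772. Alb alone made up 44910 and 57730, and then 36940 and 57050 of these means. The part of these cells in the levels of the sinusoidal markers was not tested.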
